A study of Homo sapiens with 24 samples.

Results

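The ZNF genes are the human zinc finger genes whose symbols consist of ZNF, a number and at most 1 further letter. The count files held 529 such symbols among 26475 genes. Of these, 154 had a mean count of at least 50 over the 3 DMSO libraries and form the set described here, while 375 lay below that limit, 47 of them with no count in any library. The members were thus chosen by their counts in the DMSO libraries, so every comparison with DMSO is given as a description and tests are restricted to comparisons that hold no DMSO library. Just inside the limit lay ZNF331 with a mean count of 50.3, ZNF597 and ZNF791 with 51 each and ZNF79 with 51.3. Just outside it lay ZNF37A with 49.3, ZNF823 and ZNF254 with 48.7 each and ZNF792 with 47. A limit of 50 on the mean of all 24 libraries would have chosen 163 genes, of which 144 are among the 154.

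RNA was sequenced from HepG2, an established human hepatocellular carcinoma cell line, in 24 libraries that fall into 8 groups of 3. The groups were DMSO (Con), ABBV-075 at 50 nM, ABBV-744 at 50 nM, ABBV-744 at 500 nM, the cytokine interferon gamma (IFNg) alone, and combinations of it with the 3 inhibitor treatments. ABBV-075 is a pan-BET inhibitor, and ABBV-744 is a BET inhibitor that prefers the second bromodomain of these proteins. The labels give no IFNg dose, no treatment times and no preparation batch, and all groups come from the same cell line. The study's methods call the DMSO and ABBV-075 libraries independent samples from triplicate experiments. They list ABBV-075 at 50 nM under the shorter of their treatment times, and DMSO together with other inhibitors under the longer one. No time is known here for ABBV-744 or IFNg. Comparisons of ABBV-075 with DMSO or with other groups may thus set unlike treatment times side by side. For the groups with ABBV-744 or IFNg the sources used here do not say whether the numbered replicates are separate cultures, so the p-values measure only the spread between these libraries. Each library held 2978982 to 4304103 counts on genes, and the 154 members took 0.428% to 0.681% of them. All 8 hepatocyte markers examined were present, summing to 16300 to 24400 CPM (counts scaled to a common library size), whereas all 4 fibroblast markers, 2 of 4 leukocyte markers and 2 of 4 endothelial markers stayed at or below 3 counts in every library.

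Most ZNF genes encode proteins with arrays of C2H2 zinc fingers, in which a pair of cysteines and a pair of histidines hold a zinc ion and each finger contacts a few bases of DNA. Many also carry a KRAB domain, which recruits the corepressor TRIM28 and, through it, the histone methyltransferase SETDB1 and HP1 proteins, and silences transposable elements and genes. These genes often lie in clusters, above all on chromosome 19. BET proteins bind acetylated lysines on chromatin and promote transcription, and BET inhibitors displace them.

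The members differed widely in base composition, which is described first because the libraries differed in it too. The GC content of the longest annotated transcript had a median of 45.1% over the members and ranged from 34.2% to 70.4%, against a median of 47.6% over all genes tested. The coding sequence of a single finger with its linker shows the range. The codons of the 2 cysteines and 2 histidines are in capitals, and all sequences are on GRCh38 from the GENCODE v44 transcripts. ZNF92 and ZNF444 are the low-GC and high-GC examples, ZNF765 is a member that rose in all 3 comparisons with IFNg before and after correction, and ZNF28 is a gene below the limit that is described at the end.
ZNF92 (chr7:65398721-65398804, plus strand, 35.7% GC): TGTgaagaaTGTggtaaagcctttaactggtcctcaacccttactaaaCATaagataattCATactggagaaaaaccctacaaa
ZNF765 (chr19:53408288-53408371, plus strand, 45.2% GC): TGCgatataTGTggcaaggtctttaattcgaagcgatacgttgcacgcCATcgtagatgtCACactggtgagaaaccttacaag
ZNF444 (chr19:56159758-56159841, plus strand, 69% GC): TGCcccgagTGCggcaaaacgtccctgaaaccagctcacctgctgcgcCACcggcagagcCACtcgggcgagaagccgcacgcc
ZNF28 (chr19:52800945-52801028, minus strand, 42.9% GC): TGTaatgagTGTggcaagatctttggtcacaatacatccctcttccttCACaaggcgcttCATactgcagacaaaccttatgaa

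Of the 154 members, 151 are annotated as protein coding, and their proteins held a median of 9 C2H2 finger matches with a range of 0 to 40. A KRAB string was found in 59 and not found in 92. Chromosome 19 held 49 members, 34 of them with a KRAB string, followed by chromosome 16 with 14, chromosome 7 with 13 and chromosome 1 with 12. Ordered by GC, the low-GC group of 52 members had a median of 39.3%, the middle group of 51 a median of 45.2% and the high-GC group of 51 a median of 58.5%. KRAB strings were found in 22, 30 and 7 of them, respectively. The highest mean DMSO counts belonged to ZNF207, a spindle assembly factor, with 856, to ZNF217, a gene amplified in several cancers, with 647, and to ZNF451, a SUMO ligase, with 562.3.

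The libraries themselves carried a GC trend that differed between groups. For each library, the deviation of log2 CPM from the mean of all libraries was regressed on GC over the genes that are not members. The slope per 10 points of GC averaged 0.076 ± 0.051 (SD, n = 3) in Con, 0.302 ± 0.123 with ABBV-744 at 50 nM, 0.202 ± 0.133 with ABBV-744 at 500 nM and 0.146 ± 0.087 with IFNg. It averaged -0.131 ± 0.112 with IFNg and ABBV-075, -0.285 ± 0.015 with IFNg and ABBV-744 at 50 nM and -0.179 ± 0.084 with IFNg and ABBV-744 at 500 nM. In the ABBV-075 group the slopes ran from -0.306 to 0.077, and replicate 3 stood apart on the positive side. Its 3 libraries had slopes of -0.306, -0.168 and 0.077 and 55.99%, 64.43% and 67.36% multimapping reads, those placed at several sites. Slope and multimapping share gave the libraries the same order in Con, IFNg, IFNg with ABBV-075 and both ABBV-744 groups without IFNg too. The order was reversed in both groups with IFNg and ABBV-744. Whether the slope depends on this share was not tested.

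The members followed this trend library by library. The median deviation of low-GC members minus that of high-GC members ran from -1.26 to 0.85 on the log2 scale. Low-GC members were the higher ones in all 11 libraries with a negative slope and the lower ones in all 13 libraries with a positive slope. Within each of the 8 groups, the order of the 3 libraries by slope was the reverse of their order by this difference. After a GC curve fitted to the other genes was taken off, the difference ran from -0.22 to 0.22. Part of the trend remained. The group means of this difference ran from -0.161 with ABBV-744 at 50 nM to 0.119 with IFNg and ABBV-744 at 500 nM. They were positive in the groups with a negative mean slope and negative in the others. Because the slope goes with the treatment groups, a drug effect shared by all low-GC genes and a technical GC trend cannot be told apart here. Each comparison is therefore given as deposited and again with the GC curve of the other genes entered as an offset.

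**Figure D1:**
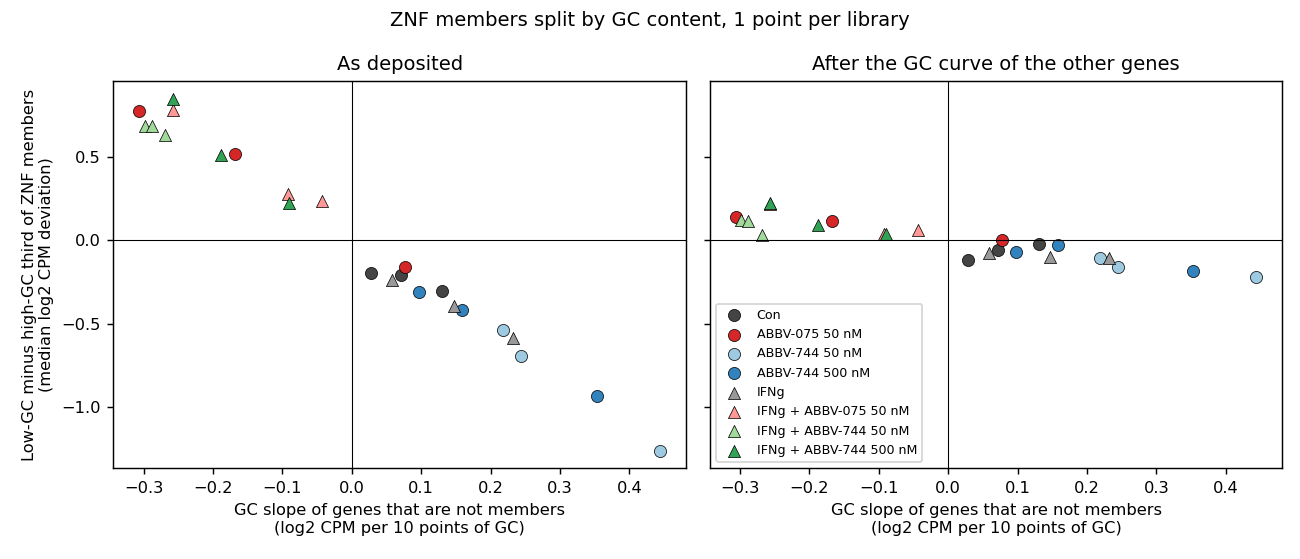
Difference between the low-GC and high-GC groups of ZNF members (median log2 CPM deviation, y axis) against the GC slope of the other genes (log2 CPM per 10 points of GC, x axis), with 1 point per library, as deposited (left) and after the GC curve (right). The difference runs from 0.85 down to -1.26 as the slope rises, and stays between -0.22 and 0.22 after the curve.

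The first question was which members responded to a BET inhibitor in cells that also received IFNg. By the quasi-likelihood test of edgeR, with p-values adjusted after Benjamini and Hochberg over all genes and called at 0.05 or less, 52 members rose and 28 fell with IFNg and ABBV-075 against IFNg, where 28.2% of all genes tested rose and 28.4% fell. With ABBV-744 at 50 nM and IFNg, 64 rose and 26 fell, where 27.4% of all genes rose and 24.3% fell. With ABBV-744 at 500 nM and IFNg, 49 rose and 20 fell, against 22.9% and 22.8% of all genes. The members' shares were thus 33.8%, 41.6% and 31.8% for those that rose and 18.2%, 16.9% and 13% for those that fell. Their median log2 fold changes were 0.11, 0.20 and 0.12, and those of all genes were -0.00, -0.02 and -0.03. Past an absolute log2 fold change of 1.5, the limit used in the study, 3 members were higher with ABBV-075 (2.41% of all genes), 9 with ABBV-744 at 50 nM (1.94%) and 5 at 500 nM (1.29%), and 0 were lower in each (3.75%, 0.368% and 0.82% of all genes). The inhibitor and IFNg libraries did not overlap for 82, 100 and 78 members, where they did not for 60.7%, 58.2% and 52.2% of all genes.

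Among the members, the rise was concentrated in those of low GC. Of the 52 low-GC members, 38, 45 and 38 rose in the 3 comparisons and 0 fell, and their median log2 fold changes were 0.59, 0.85 and 0.74. Of the 51 high-GC members, 3, 0 and 2 rose and 17, 21 and 14 fell, with medians of -0.16, -0.26 and -0.23. Over all genes of any GC, 28.2%, 27.4% and 22.9% rose and 28.4%, 24.3% and 22.8% fell. Shares of other genes of low or high GC are not given. The counts by GC group therefore do not show whether members differ from other genes of the same GC. With the GC correction, 40 members rose and 27 fell for ABBV-075, 46 rose and 12 fell for ABBV-744 at 50 nM, and 36 rose and 11 fell for ABBV-744 at 500 nM. The corresponding shares of all genes were 26.9% and 29%, 16.5% and 18%, and 17.5% and 19.4%. The medians of the low-GC members were then 0.14, 0.21 and 0.22 and those of the high-GC members 0.05, 0.04 and 0.01.

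**Figure D2:**
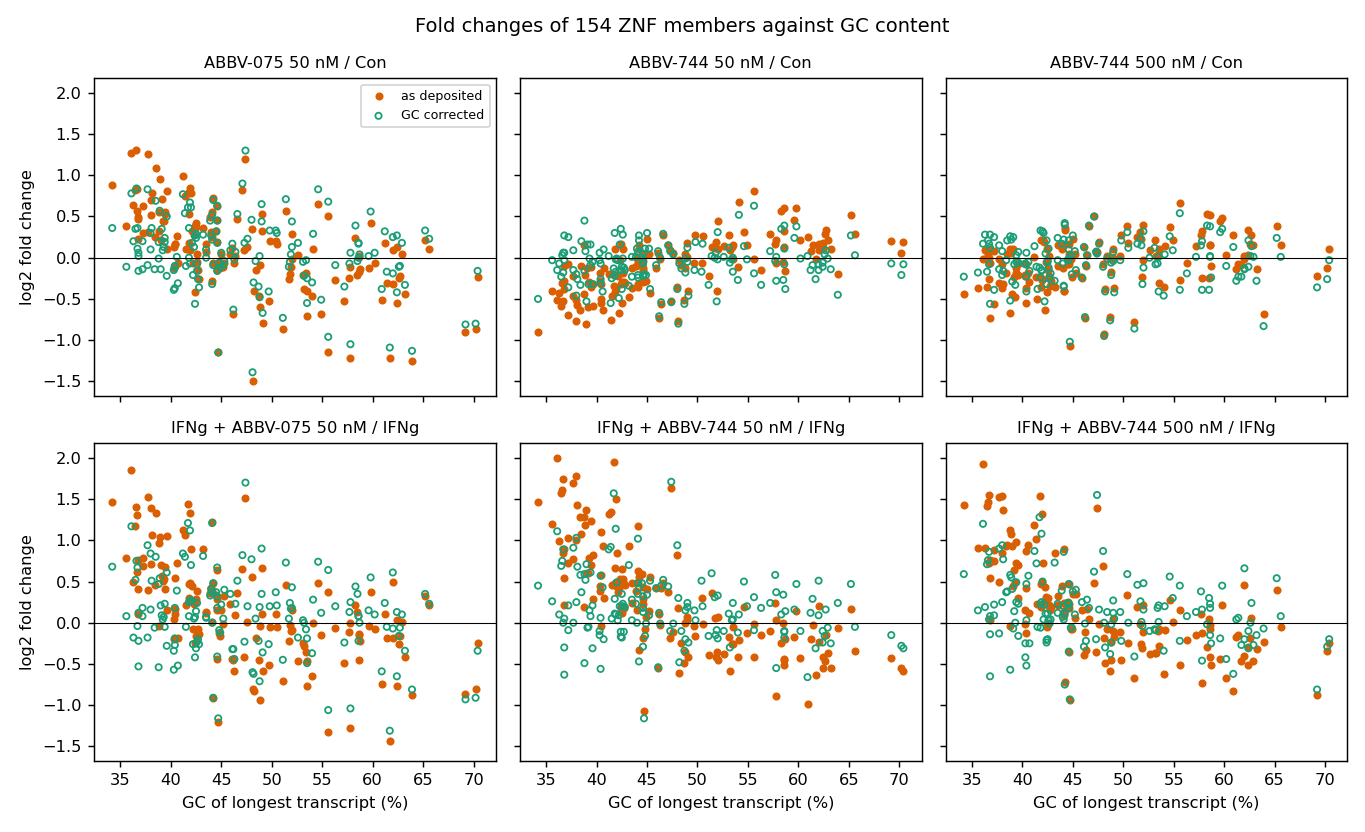
Log2 fold change of each of the 154 ZNF members (y axis) against the GC content of its longest transcript in percent (x axis), for the inhibitors against Con (upper row) and with IFNg against IFNg (lower row), as deposited (filled) and GC corrected (open). Low-GC members lie highest in the lower row as deposited, with medians of 0.59, 0.85 and 0.74, and at 0.14, 0.21 and 0.22 after correction.

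Of the members called as deposited, 32 of 52 that rose and 18 of 28 that fell with ABBV-075 were called in the same direction after the GC correction. For ABBV-744 at 50 nM these were 37 of 64 and 7 of 26, and at 500 nM 30 of 49 and 7 of 20. The GC content of the Ensembl canonical transcript in place of the longest one, an alternative added after seeing the data, kept 31 and 19, 32 and 7, and 32 and 8. No share of all called genes stands beside these counts. They do not show whether members lost calls more often than other genes. These 3 comparisons share the IFNg libraries, so an overlap between them is not independent evidence. As deposited, 43 members rose in all 3 and 11 fell in all 3, where 18.2% and 16.3% of all genes tested in all 3 did. Of these, 20 rose and 4 fell in all 3 after the GC correction as well, where 8.16% and 8.72% of all genes did. With the canonical transcripts too, 18 and 4 did so, where 7.09% and 8.2% of all genes did, ZNF92 and ZNF33A being the ones lost.

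ZNF765, a KRAB zinc finger gene on chromosome 19 (53389793 to 53430413, plus strand), had the largest fold changes of all members in each comparison after correction by its longest transcript. Its levels were 14.5, 10.9 and 14 CPM in the IFNg libraries, 44, 34.5 and 34.7 with IFNg and ABBV-075, 37.9, 41 and 41.7 with IFNg and ABBV-744 at 50 nM, and 38, 35 and 31.7 at 500 nM. Every library with inhibitor lay above every IFNg library. The log2 fold changes were 1.51 ± 0.17 (SE, adjusted p = 1.65e-09), 1.63 ± 0.15 (adjusted p = 1.19e-10) and 1.39 ± 0.17 (adjusted p = 5.42e-08), and with the GC correction 1.70, 1.71 and 1.55. The correction depends on the transcript for this gene, whose longest transcript has 47.4% GC and whose canonical transcript has 39.5%: with the latter, the fold changes were 1.05, 0.98 and 0.88.

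ZNF518A, on chromosome 10 (96129715 to 96205288, plus strand), had the largest fold changes as deposited. It was at 26.2, 20.1 and 24.1 CPM with IFNg, at 101, 83.8 and 70.5 with ABBV-075 added, at 121, 70.6 and 85.9 with ABBV-744 at 50 nM and at 98.2, 86.9 and 86.1 at 500 nM. No library with inhibitor overlapped the IFNg libraries. The log2 fold changes were 1.85 ± 0.14 (adjusted p = 9.77e-14), 2.00 ± 0.15 (adjusted p = 1.36e-12) and 1.93 ± 0.13 (adjusted p = 4.3e-13). At a GC of 36.1%, the correction took them to 1.17, 1.11 and 1.20, and all remained past the threshold.

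The KRAB genes ZNF780A and ZNF91 on chromosome 19 and ZNF268 on chromosome 12 also rose in all 3 comparisons. ZNF780A was at 12.3, 13 and 13.7 CPM with IFNg, at 37.3, 41.1 and 33.8 with ABBV-075 and IFNg, and its log2 fold changes of 1.52, 1.69 and 1.52 became 0.94, 0.91 and 0.90. ZNF91, which represses SVA retrotransposons, was at 23.7, 19.8 and 19.3 CPM with IFNg and at 60.4, 53.3 and 53 with ABBV-075 and IFNg, and its fold changes of 1.40, 1.61 and 1.46 became 0.75, 0.75 and 0.76. ZNF268 was at 11.5, 9.45 and 9.79 CPM with IFNg and at 51.6, 28.3 and 37 with ABBV-744 at 50 nM and IFNg, and its fold changes of 1.44, 1.95 and 1.54 became 1.21, 1.57 and 1.28. In all 3 genes the correction reduced the size of the change and did not end the call.

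Members without a KRAB string rose too. ZNF146, which consists almost only of fingers, was at 17.7, 14.2 and 14.5 CPM with IFNg and at 35.7, 41.3 and 39.8 with ABBV-744 at 50 nM and IFNg. Its log2 fold changes against IFNg were 1.07, 1.34 and 1.01, and 0.80, 0.92 and 0.72 after correction. ZNF644, a partner of the G9a histone methyltransferase, had 1.17, 1.57 and 1.42, and 0.52, 0.69 and 0.71 after correction. ZNF292 had 1.31, 1.74 and 1.55, and 0.67, 0.89 and 0.86 after correction. These rises are against IFNg. As a description, ABBV-744 at 50 nM without IFNg stood below DMSO, at -0.76 for ZNF146, -0.58 for ZNF644 and -0.29 for ZNF292. After correction these values were -0.55, -0.23 and 0.06.

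Further members that rose in all 3 comparisons differed in how much the correction took away. ZNF12, a KRAB gene on chromosome 7, was at 25.9, 27.2 and 25.5 CPM with IFNg, at 72.1, 67.2 and 58.8 with ABBV-075 added, at 82.7, 62.7 and 73.5 with ABBV-744 at 50 nM and at 76.9, 63.5 and 57.8 at 500 nM. Its log2 fold changes were 1.33 ± 0.13, 1.5 ± 0.13 and 1.32 ± 0.13, and 1.12, 1.14 and 1.08 after correction. ZNF367, at 44.1% GC, had 1.22, 1.17 and 0.90, and kept 1.21, 1.02 and 0.86. The KRAB gene ZNF267, at 38% GC, had 1.39, 1.78 and 1.54, and 0.84, 1.03 and 0.94 after correction. ZNF92, the member with the lowest GC, had 1.46, 1.47 and 1.43 and retained 0.68, 0.45 and 0.59. ZNF664 was the other way round, with 0.56, 0.82 and 0.69 as deposited and 0.77, 0.94 and 0.87 after correction, at 48% GC in its longest transcript and 43.7% in its canonical one.

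Among the members that fell, ZNF556, ZNF444, ZNF574 and ZNF219 did so in all 3 comparisons under both GC measures. ZNF556, a KRAB gene on chromosome 19, was at 30, 26.6 and 23.2 CPM with IFNg, at 13.7, 12 and 9.04 with ABBV-075 added, at 14.7, 11.9 and 10.8 with ABBV-744 at 50 nM and at 14, 15.1 and 12.9 at 500 nM. The inhibitor libraries all lay below the IFNg libraries, and the log2 fold changes of -1.20 ± 0.19, -1.07 ± 0.17 and -0.94 ± 0.18 were -1.16, -1.16 and -0.93 after correction. At 44.7% GC, this member was close to the middle of the range, where the curve moved values least. ZNF444, a zinc finger gene with a SCAN domain, went from 46.1, 46.6 and 58.7 CPM with IFNg to 20.1, 23.7 and 18.7 with ABBV-075 added, and its log2 fold changes of -1.28, -0.89 and -0.73 were -1.04, -0.55 and -0.46 after correction. ZNF574 had -0.74, -0.99 and -0.83, and -0.59, -0.66 and -0.62 after correction. ZNF219 had -0.80, -0.55 and -0.34, and -0.91, -0.28 and -0.29 after correction, and at 500 nM its libraries overlapped those with IFNg alone. ZNF358, at 69.2% GC, was at 9.55, 19.8 and 15.9 CPM with IFNg and at 8.99, 6.53 and 9.23 with ABBV-744 at 500 nM added, a fall by 0.88 ± 0.25 on the log2 scale (adjusted p = 0.0048), and stood at -0.81 after correction.

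**Figure D3:**
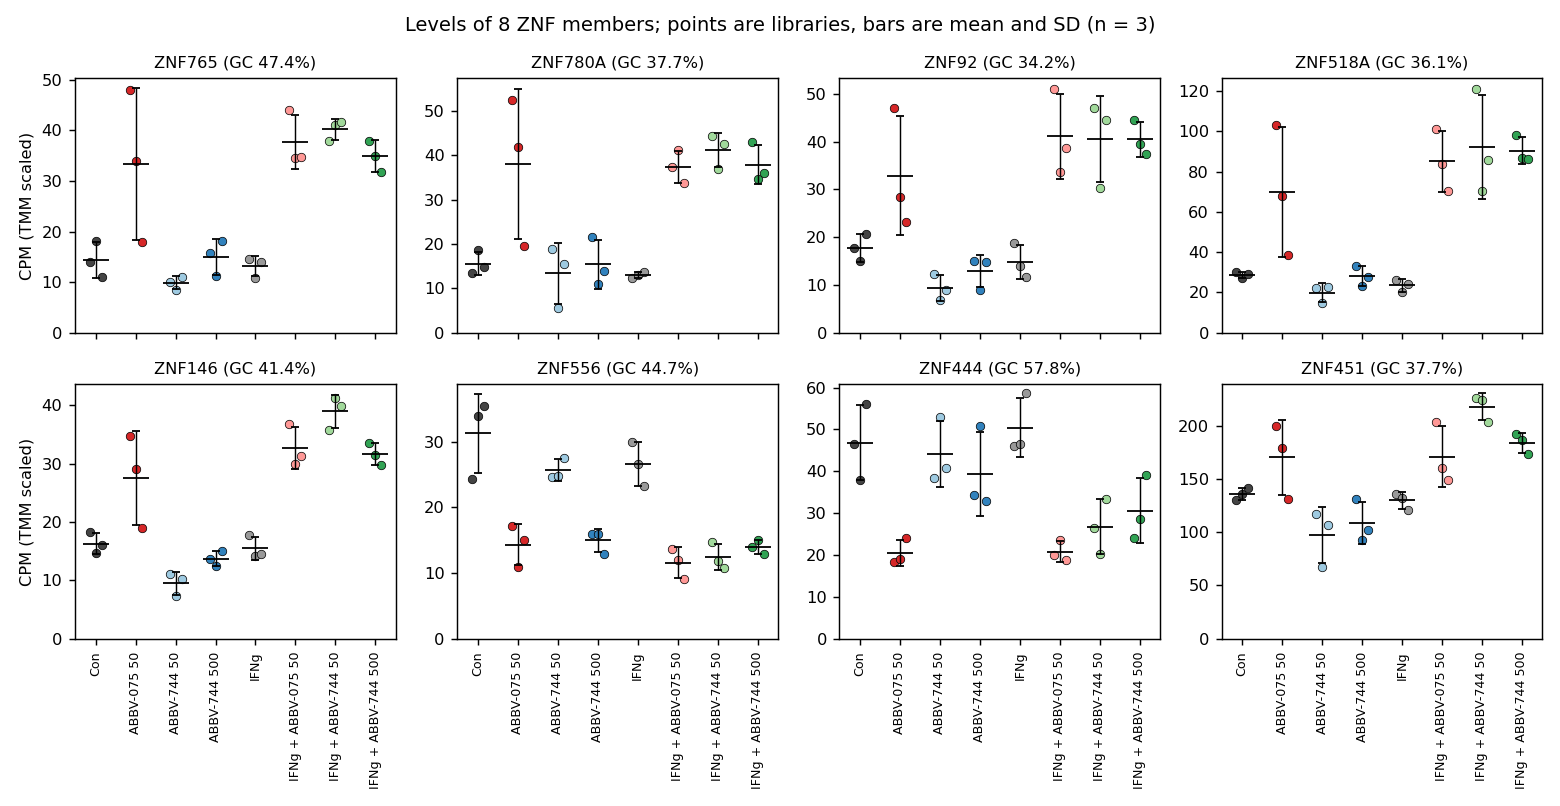
Level in CPM (y axis, from 0) of 8 ZNF members in the 8 treatment groups (x axis, doses in nM), with 1 point per library and bars for the mean and SD (n = 3). ZNF518A lies at 20.1 to 26.2 CPM in the IFNg libraries and at 70.5 to 121 in those with IFNg and an inhibitor, while ZNF556 runs the other way, from 23.2 to 30 down to 9.04 to 15.1.

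Other members lost or turned their direction with the correction. ZNF451 rose as deposited by 0.40, 0.77 and 0.49 on the log2 scale and stood at -0.18, -0.00 and -0.13 after correction, and its GC is 37.7%. ZNF714 rose by 0.41, 0.54 and 0.54 and stood at -0.22, -0.30 and -0.14. ZNF207 was at 0.21 ± 0.09 (adjusted p = 0.0428) with ABBV-744 at 50 nM and IFNg and at -0.63 (adjusted p = 1.54e-08) after correction. In all, the sign changed for 6 of the members that rose with ABBV-075, for 9 that rose and 1 that fell with ABBV-744 at 50 nM, and for 4 that rose at 500 nM. These counts have no share of all genes beside them, so they do not show whether members turned more often than other genes.

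**Figure D4:**
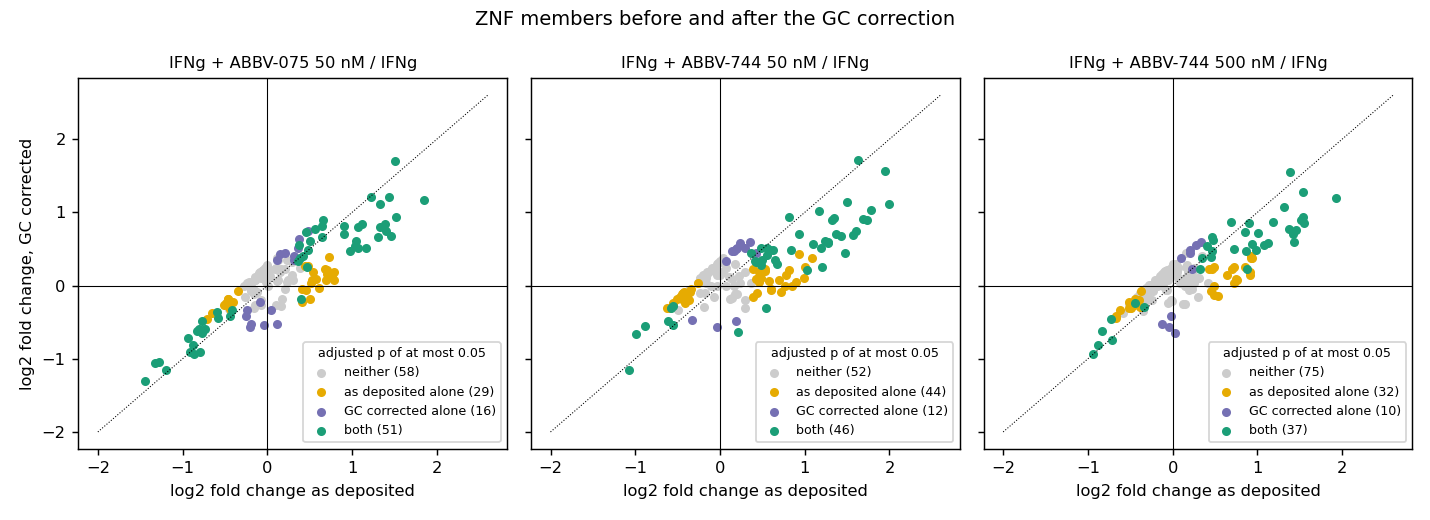
Log2 fold change of each ZNF member with the GC correction (y axis) against that as deposited (x axis) for the 3 comparisons of IFNg plus inhibitor with IFNg, coloured by which fit called it, with a dotted line of equality. The members called by both fits, in either direction, number 51, 46 and 37. The largest deposited rises lie below the line, ZNF765 excepted.

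Members with a KRAB string were compared with the others. Of the 59 members with a KRAB string, 23, 28 and 20 rose and 10, 6 and 5 fell in the 3 comparisons, with medians of 0.23, 0.41 and 0.19. Of the 92 without one, 27, 33 and 27 rose and 18, 20 and 15 fell, with medians of 0.03, 0.05 and 0.02. The shares of all genes were 28.2%, 27.4% and 22.9% for those that rose and 28.4%, 24.3% and 22.8% for those that fell. After correction the medians were 0.20, 0.19 and 0.16 with a KRAB string and 0.07, 0.10 and 0.09 without. Within the low-GC group, the 22 KRAB members had corrected medians of 0.43, 0.40 and 0.37 and the 27 others 0.07, 0.10 and 0.15. The 49 members on chromosome 19 had medians of 0.29, 0.43 and 0.19 as deposited and 0.18, 0.19 and 0.07 after correction. No test was made of these differences between groups of members.

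Zinc finger genes of other names were measured at the same count limit. Among 9 ZSCAN and ZKSCAN genes, 4, 3 and 3 rose and 0, 1 and 1 fell, with medians of 0.24, 0.27 and 0.27 and corrected medians of 0.32, 0.24 and 0.29. Among 19 ZBTB genes, 5, 8 and 6 rose and 4, 3 and 4 fell, with medians of 0.07, 0.07 and 0.02. Beside both families, 28.2%, 27.4% and 22.9% of all genes rose and 28.4%, 24.3% and 22.8% fell. These families are small, and no test was made of them as groups.

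The corepressors with which KRAB proteins work moved in both directions. Of 17 genes of a KRAB corepressor list that were tested, 7, 8 and 6 rose and 4, 6 and 2 fell in the 3 comparisons. All genes tested moved in both directions too, 28.2%, 27.4% and 22.9% rising and 28.4%, 24.3% and 22.8% falling. CBX5, which encodes the HP1 alpha protein, rose by 1.25 ± 0.14, 1.18 ± 0.13 and 1.17 ± 0.16, and by 1.04, 0.81 and 0.92 after correction. ATRX, a chromatin remodeller, rose by 1.33, 1.58 and 1.45, and by 0.69, 0.73 and 0.77 after correction. SETDB1 fell by 0.66, 0.70 and 0.85, and by 0.39, 0.47 and 0.59 after correction. TRIM28 itself, at 64.2% GC, stood at 0.29 ± 0.09 (adjusted p = 0.00577) with ABBV-075 and IFNg, at -0.41 ± 0.08 (adjusted p = 3.45e-05) with ABBV-744 at 50 nM and IFNg, and at -0.06 ± 0.09 at 500 nM. After correction these were 0.34, -0.10 and 0.09, and the call for ABBV-744 at 50 nM was lost.

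The next question was whether the compounds and doses differed. Between 500 and 50 nM of ABBV-744, 0 members were called by edgeR's quasi-likelihood test, both without IFNg, where 0% of all genes rose and 0.0274% fell, and with IFNg, where 1.41% rose and 0.29% fell. At an unadjusted p under 0.05 the members were 10 higher and 4 lower without IFNg, and 12 higher and 11 lower with it. These unadjusted counts have no share of all genes beside them, so they do not show whether the members differ from other genes. After the GC correction ZNF556 alone was called, lower at 500 nM without IFNg, where 0.00912% of all genes were higher and 0.137% lower, and 0 members were called with IFNg, where 0.78% and 0.0998% were. It is not shown that the doses act alike: the 95% interval of the log2 difference for ZNF765, estimated as 0.60, ran from 0.15 to 1.05 without IFNg, and that for ZNF556, estimated as -0.78, ran from -1.13 to -0.43. With IFNg the intervals ran from -0.43 to 0.07 for ZNF765 and from -0.20 to 0.58 for ZNF556.

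Between ABBV-075 and ABBV-744, both at 50 nM and without IFNg, 50 members were higher and 22 lower with ABBV-075, where 21.4% of all genes were higher and 19.4% lower. With IFNg the picture differed, with 11 higher and 27 lower, where 16.7% and 17% of all genes were. After correction these counts were 30 and 12 without IFNg, where 16.5% and 17.8% of all genes were called, and 9 and 25 with it, where 16.3% and 18.3% were. Without IFNg, 6 members were higher past the log2 limit of 1.5 (2.2% of all genes) and 0 lower (1.63%), and the libraries did not overlap for 85 members (51.7% of all genes). Without IFNg the count rests on few libraries: it ran from 22 to 59 higher and from 10 to 26 lower as each library was left out, the lowest without ABBV-075 replicate 2 and the highest without ABBV-075 replicate 3.

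The highest log2 differences without IFNg were those of ZNF92 and ZNF518A at 1.81, ZNF765 at 1.75 and ZNF91 at 1.65. Without IFNg, ZNF765 was at 48, 33.9 and 18 CPM with ABBV-075 and at 10.1, 8.48 and 11.1 with ABBV-744 at 50 nM. Its log2 difference of 1.75 ± 0.33 (adjusted p = 0.00317) was 1.85 after correction by its longest transcript, and for this gene the correction depends on the transcript. ZNF518A was at 103, 68.1 and 38.5 CPM with ABBV-075 and at 22.4, 14.5 and 22.9 with ABBV-744, a log2 difference of 1.81 ± 0.32 (adjusted p = 0.00279) that was 0.95 after correction. In both genes the ABBV-075 libraries lay above all ABBV-744 libraries, with replicate 3 the lowest of the 3. With IFNg the log2 differences were -0.04 for ZNF765, with a 95% interval from -0.29 to 0.21, and -0.08 for ZNF518A, with an interval from -0.32 to 0.16.

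Some members differed between the compounds with and without IFNg. ZNF689, a KRAB gene on chromosome 16, was at 53.5, 51.1 and 58.5 CPM with IFNg, at 22.6, 22 and 20.2 with IFNg and ABBV-075 and at 37.9, 42.7 and 40.1 with IFNg and ABBV-744 at 50 nM. The ABBV-075 libraries lay below all others of these 3 groups, and the log2 difference between the compounds was -0.84 ± 0.14 (adjusted p = 6.53e-06), or -0.96 after correction, and -1.10 ± 0.17 (adjusted p = 0.00167) without IFNg, or -0.76 after correction. ZNF710 was at 37.1, 36.9 and 37.8 CPM with IFNg, at 12.4, 13.9 and 15.1 with IFNg and ABBV-075 and at 27.7, 22.6 and 20.7 with IFNg and ABBV-744 at 50 nM. Its groups did not overlap either, and its log2 difference was -0.74 ± 0.18 (adjusted p = 0.000943) with IFNg and -1.18 ± 0.17 (adjusted p = 0.0011) without, or -1 and -0.82 after correction. Against IFNg, ZNF710 fell by 1.44 with ABBV-075 on the log2 scale, the lowest value of any member, and its fall by 0.63 and 0.47 with the ABBV-744 doses did not pass the test after correction, at -0.31 (adjusted p = 0.0767) and -0.27 (adjusted p = 0.0991).

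ZNF853 was at 19.1, 12.4 and 19.3 CPM with IFNg, at 8.45, 9.79 and 9.64 with ABBV-075 added and at 18.3, 14.4 and 15.2 with ABBV-744 at 50 nM. Its libraries with ABBV-075 lay below the rest, with a log2 difference between the compounds of -0.74 ± 0.20 (adjusted p = 0.00369), or -1.04 after correction. ZNF3 was at 84.3, 88.3 and 95.4 CPM with IFNg, at 45.2, 50.9 and 43.7 with ABBV-075 added and at 71.4, 64.7 and 69.9 with ABBV-744 at 50 nM, again with no overlap, and its difference was -0.51 ± 0.11 (adjusted p = 0.00034), or -0.50 after correction. ZNF853 was chosen for its value against DMSO, and the comparison here holds no DMSO library. With IFNg, ZNF598, a ubiquitin ligase of stalled ribosomes, was higher with ABBV-075 than with ABBV-744 by 0.63 ± 0.12 (adjusted p = 7.68e-05), and by 0.29 after correction. ZNF589, a KRAB gene on chromosome 3, was at 30.3, 21.5 and 26.5 CPM with IFNg and ABBV-075 and at 15.4, 16.4 and 18 with IFNg and ABBV-744 at 50 nM, higher with ABBV-075 by 0.71 ± 0.17 (adjusted p = 0.000884), and by 0.72 after correction.

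Whether the compound difference itself depended on IFNg was tested as an interaction over the 4 groups at 50 nM. As deposited, 53 members had a lower ABBV-075 minus ABBV-744 difference with IFNg than without and 16 a higher one, where 20.3% and 15.1% of all genes did. The steepest mean GC slopes in either direction, 0.302 and -0.285, belong to the ABBV-744 groups of this test, and after correction 12 and 1 members were called, against 3.6% and 3.82% of all genes. Past the log2 limit of 1.5, 14 members were lower and 0 higher as deposited, where 2.5% and 0.598% of all genes were. Without ABBV-075 replicate 3, 62 and 23 members were called as deposited and 26 and 4 after correction, with no share of all genes beside these counts. ZNF765 had an interaction of -1.80 ± 0.36 (adjusted p = 0.00484), and of -1.86 after correction by its longest transcript. For this gene the correction depends on the transcript, and it was called with the canonical transcript too. ZNF146 had -1.75 ± 0.29 (adjusted p = 0.00401), and -1.21 after correction. The dose of ABBV-744 showed no such interaction for any member by edgeR's quasi-likelihood test, 0 being called where 0.0264% of all genes were higher and 0% lower. At an unadjusted p under 0.05 the members were 9 higher and 17 lower, again with no share of all genes beside these counts. After correction 0 were called, where 0.15% and 0.0176% of all genes were.

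**Figure D5:**
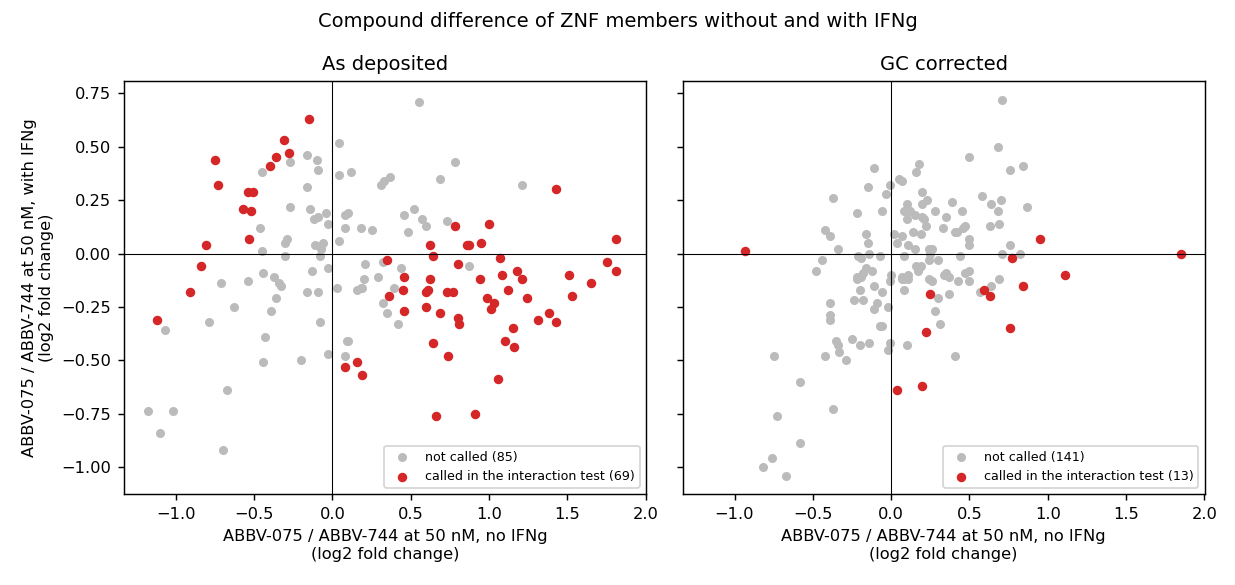
ABBV-075 minus ABBV-744 at 50 nM for each ZNF member with IFNg (y axis) against the same difference without IFNg (x axis), both as log2 fold changes, as deposited (left) and GC corrected (right), with members called in the interaction test in red. There are 69 such members as deposited and 13 after correction.

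Against DMSO the members' values are a description, because the DMSO libraries chose them. With ABBV-075, 30 members were higher and 19 lower at the same threshold, where 19.8% and 19.6% of all genes were. With ABBV-744 at 50 nM these were 9 and 18, where 8.81% and 10.1% of all genes were, and at 500 nM 5 and 15, where 7.48% and 7.8% were. With IFNg alone 0 members were called, where 2.76% of all genes were higher and 0.695% lower. At an unadjusted p under 0.05, 4 members were higher and 15 lower, with no share of all genes beside these counts. After correction the counts were 32 and 21 for ABBV-075 (21.6% and 23.5% of all genes), 6 and 5 for ABBV-744 at 50 nM (5.58% and 5.21%), 7 and 17 at 500 nM (8.38% and 9.54%), and 0 and 1 for IFNg (3.4% and 1.14%). The range without each library was wide for ABBV-075, from 14 higher without Con replicate 3 to 52 without ABBV-075 replicate 3.

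ZNF765 was at 13.9, 18.2 and 11 CPM in Con and at 48, 33.9 and 18 with ABBV-075. ZNF114 was at 13.7, 12.2 and 15.3 CPM in Con, at 6.03, 2.58 and 6.01 with ABBV-075, at 8.65, 8.48 and 6.67 with ABBV-744 at 50 nM and at 8.43, 8.01 and 5.18 at 500 nM. Every ZNF114 library with an inhibitor and without IFNg lay below the DMSO libraries, and the log2 fold changes after correction were -1.39, -0.80 and -0.95. Other large values against DMSO, as log2 fold changes, were 1.31 for ZNF91 and -1.25 for ZNF853 with ABBV-075, and 0.84 and -1.13 after correction. With ABBV-744 at 50 nM they were 0.81 for ZNF76, 0.68 for ZNF142, 0.60 for ZNF646, -0.90 for ZNF92 and -0.81 for ZNF280D. The correction took these to 0.63, 0.52, 0.38, -0.50 and -0.53, and ZNF92 and ZNF280D were no longer called. At 500 nM they were 0.66 for ZNF76, 0.53 for ZNF687, 0.52 for ZNF362, -1.07 for ZNF556 and -0.78 for ZNF16. The corrected values were 0.54, 0.39, 0.38, -1.02 and -0.86, and ZNF362 at 500 nM was called in neither fit. With IFNg alone, ZNF280B was at 15.3, 16.2 and 16.2 CPM against 20.1, 22.4 and 24.8 in Con, and ZNF74 at 20.7, 20.7 and 23.2 against 18.5, 14.7 and 18.6. ZNF7 was at 31.4, 33.9 and 31.9 CPM with IFNg against 27.6, 28.6 and 22.7. These groups did not overlap, and none of the 3 members was called.

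The direction with and without IFNg can be compared between pairs that share no library. For ABBV-075, 140 of 154 members (90.9%) had the same sign against DMSO and, with IFNg, against IFNg, where 86% of all genes did, and 128 (83.1%) did after correction, where 85% of all genes did. For ABBV-744 at 50 nM only 43 (27.9%) had the same sign as deposited, where 33.6% of all genes did, and 69 (44.8%) after correction, where 54.3% did. At 500 nM these were 65 (42.2%, all genes 48.6%) and 84 (54.5%, all genes 62.5%). Members that rose with ABBV-744 at 50 nM and IFNg against IFNg could thus stand lower than DMSO without IFNg. At 50 nM against DMSO, ZNF518A stood at -0.51, ZNF765 at -0.53, ZNF267 at -0.77, ZNF780A at -0.22 and ZNF91 at -0.31. After correction these were -0.15, -0.54, -0.46, 0.09 and 0.03.

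ZNF28, a zinc finger gene on chromosome 19, did not reach the count limit, with a mean of 19.3 counts in DMSO, and is not among the 154. Its counts were 12, 18 and 28 in Con, 96, 69 and 28 with ABBV-075, 19, 11 and 10 with ABBV-744 at 50 nM and 25, 8 and 21 at 500 nM. With IFNg they were 17, 11 and 12, and with the inhibitors added 95, 63 and 60 for ABBV-075, 78, 49 and 83 for ABBV-744 at 50 nM, and 50, 50 and 46 at 500 nM. The libraries with IFNg and an inhibitor all lay above the IFNg libraries. Against IFNg the log2 fold changes were 2.37 ± 0.25, 2.31 ± 0.25 and 1.99 ± 0.26, and 1.93, 1.71 and 1.52 after correction. ZNF28 was singled out with earlier results of these data known, so its values are a description and not a test.

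HEXIM1, a marker of BET inhibition, rose by 1.51 ± 0.11 (adjusted p = 2.47e-14) with ABBV-075 and IFNg and by 0.58 ± 0.12 (adjusted p = 0.000121) with ABBV-744 at 500 nM and IFNg, and stood at 0.09 ± 0.13 at 50 nM. IRF1, a target of IFNg, rose by 4.26 ± 0.12 (adjusted p = 4.53e-27) with IFNg against DMSO, and GBP1, another such target, by 4.89 ± 0.31 (adjusted p = 1.58e-15). MYC fell by 0.81, 0.64 and 0.60 on the log2 scale with ABBV-075 and the 2 ABBV-744 doses in the presence of IFNg.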

How the data were processed

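Total RNA of HepG2 cells was sequenced in 24 libraries, and per the labels the authors used CASAVA 1.8.2, Trimmomatic 0.33 and STAR 2.7.1 with hg38. The deposited files hold raw read counts per gene, and column 4, the strand on which 98.28% to 98.53% of stranded gene counts fell, was used. Multimapping reads, 55.98% to 69.38% of the reads in a file, are not assigned to genes, so members of near-identical sequence may be undercounted. Members and lists were chosen with earlier results of these data known.

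Counts were fitted with edgeR 4.0.16 (filterByExpr, TMM, glmQLFit, glmQLFTest, R 4.3.3), using the libraries of each comparison, with Benjamini-Hochberg adjustment over all genes tested. All 154 members passed the filter in every comparison. SE is the absolute log2 fold change over the root of the F statistic, and 95% intervals take the normal distribution. CPM are TMM scaled over all 24 libraries. GC content and length came from GENCODE v44 by symbol, which matched all members. The GC correction is a lowess curve (span 0.3) of log2 CPM (prior count 2) on GC per library, fitted without members and entered as an offset. The steps were tested on simulated counts. Finger and KRAB matches came from translated GENCODE coding sequences in place of the RefSeq proteins that had been planned, and the KRAB string was widened once after it missed known KRAB genes.

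Named genes are the members with the largest called changes in each comparison without DMSO, the highest counts, those near the limit, those called in all 3 IFNg comparisons and those whose sign the correction turned. Against DMSO they are members with the largest changes whose groups did not overlap, whether called or not. The rule also took every member called in the compound interaction, of which only the 13 called after correction are named. Alternatives were DESeq2 1.42.0, other filters and scaling, both strands, a replicate block, length and GC corrections, all 24 libraries in the fit, and leaving out each library.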

Additional observations from a re-analysis of the deposited data

Results flagged for a closer look

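The difference between ABBV-075 and ABBV-744 at 50 nM differed with and without IFNg, by the interaction test, for 53 members in the lower direction and 16 in the higher one, where 20.3% and 15.1% of all genes did, and after the GC correction for 12 and 1, where 3.6% and 3.82% did. The members that were also called after the GC correction are given as the log2 difference of differences as deposited. The value corrected by the longest transcript follows in brackets. ZNF518A stood at -1.89 (-0.88), ZNF765 at -1.80 (-1.86), ZNF644 at -1.76 (-0.77), ZNF146 at -1.75 (-1.21), ZNF614 at -1.68 (-0.84), ZNF268 at -1.61 (-1.12) and ZNF507 at -1.43 (-0.69). ZNF252P stood at -1.34 (-0.8), ZNF121 at -1.24 (-0.6), ZNF664 at -0.92 (-1), ZNF75D at -0.86 (-0.83) and ZNF217 at -0.74 (-0.45). ZNF556 at 0.78 (0.94) was the only one in the higher direction. With the GC content of the canonical transcripts, 10 of these 13 were called, and ZNF121, ZNF217 and ZNF75D were not. The 4 groups differ in GC slope, with means of -0.132 and 0.302 without IFNg and -0.131 and -0.285 with it for ABBV-075 and ABBV-744, and the part of this in the interaction beyond the correction was not tested.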

How the results depend on the processing

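Direction and side of the threshold held for 1489 of the values of named members under an alternative, 86 were no longer past it, 4 newly passed it and 59 changed sign. Of the counts and medians over the members, 506 stayed within the limits set and 113 moved. The cause of these moves was not tested, and the counts under each alternative below are given without shares of all genes. At these depths, differences between the ABBV-744 doses had a median SE of 0.19 on the log2 scale without IFNg and 0.15 with it. The correction, the transcript whose GC is taken and the treatment groups are tied together, so a call that the correction removes cannot be assigned to the trend or to the treatment. The canonical-transcript correction, the combined corrections and the interaction without ABBV-075 replicate 3 were chosen after seeing the data.

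With the GC correction, 12 members fell with ABBV-744 at 50 nM and IFNg against IFNg and their median was 0.13, and 11 fell at 500 nM. Between the doses 1 was lower without IFNg, and the median with IFNg was -0.02. Between the compounds without IFNg, 30 were higher and 12 lower. Against Con, 5 were lower with ABBV-744 at 50 nM and 1 with IFNg. In the compound interaction, 1 was higher and 12 lower. With the canonical transcript, the median for ABBV-075 and IFNg was 0.09, 40 rose and 12 fell with a median of 0.11 for ABBV-744 at 50 nM and IFNg, and 13 fell with a median of 0.08 at 500 nM. Between the compounds, 28 were higher and 13 lower without IFNg, the median with IFNg was -0.06, and the interaction had 1 higher and 9 lower.

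Signs changed with the GC correction as follows, the canonical-transcript value second. For ABBV-075 and IFNg, ZNF451 went to -0.18 and -0.30, ZNF326 to -0.04 and -0.10, ZNF770 to -0.18 and -0.24, ZNF714 to -0.22 and -0.28, ZNF507 to -0.05 and -0.08, and ZNF614 to -0.06 and -0.10. For ABBV-744 at 50 nM and IFNg, ZNF207 went to -0.63 and -0.70, ZNF451 to -0.00 and -0.14, ZNF326 to -0.00 and -0.07, ZNF714 to -0.30 and -0.36, ZNF271P to -0.05 and -0.01, ZNF516 to 0.03 in both, ZNF431 to -0.09 and -0.15, ZNF805 to -0.10 and -0.13, ZNF639 to -0.15 and -0.10, and ZNF655 to -0.06 with the first alone. At 500 nM, ZNF451 went to -0.13 and -0.25, ZNF714 to -0.14 and -0.20, ZNF655 to -0.07 and -0.01, and ZNF248 to -0.00 and -0.04.

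The main fit took no pairing by replicate number. The correlation of same-numbered libraries ran from -0.181 to 0.336, and 0 of 11 comparisons had every pair above 0.1. With so few pairs per comparison this cannot show that the samples are unpaired. Between the ABBV-744 doses without IFNg the correlations were 0.25, 0.33 and 0.06. With the replicate block, 2 members were higher and 2 lower between the doses without IFNg, 1 was higher with IFNg, and 8 were lower with ABBV-744 at 500 nM against Con. With the block and the GC correction together, 12 fell for ABBV-744 at 50 nM and IFNg with a median of 0.13, 11 fell at 500 nM, 1 was lower between the doses without IFNg, the median between the doses with IFNg was -0.01, 33 were higher and 12 lower between the compounds without IFNg, and 4 were higher and 3 lower with ABBV-744 at 50 nM against Con. The compound interaction then had 2 higher and 16 lower and the dose interaction 1 higher. In that blocked fit, ZNF451 stood at -0.18, -0.00 and -0.13 in the 3 comparisons with IFNg, ZNF714 at -0.22, -0.30 and -0.14, ZNF326 at -0.04 and -0.00 in the first pair, ZNF770 at -0.18, ZNF507 at -0.04 and ZNF614 at -0.06 with ABBV-075, ZNF207 at -0.63, ZNF271P at -0.04, ZNF516 at 0.03, ZNF431 at -0.10, ZNF805 at -0.10 and ZNF639 at -0.15 with ABBV-744 at 50 nM, and ZNF655 at -0.06 and -0.07 at its 2 doses.

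With DESeq2, 14 members fell with ABBV-744 at 50 nM and IFNg and 7 at 500 nM, 14 were lower between the compounds without IFNg, 5 were higher and 17 lower with it, and the median between the doses with IFNg was -0.09. Against Con, DESeq2 gave 5 higher and 9 lower for ABBV-744 at 50 nM and 2 and 4 at 500 nM. With the length correction, the medians were 0.06, 0.04 and 0.05 against IFNg and -0.03 for ABBV-744 at 50 nM against Con, and ZNF207 stood at -0.22 with ABBV-744 at 50 nM and IFNg. Members called as deposited, with GC and with length correction numbered 26 higher and 18 lower for ABBV-075 and IFNg, 34 and 7 for ABBV-744 at 50 nM and 25 and 6 at 500 nM. Counts from both strands and no filter each gave 1 member higher between the doses with IFNg. With all 24 libraries in the fit, 5 were higher between the compounds with IFNg and the median was -0.13, 46 were higher with ABBV-075 against Con, and 6 were lower with ABBV-744 at 500 nM against Con.

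Leaving out each library in turn, members that rose and fell against IFNg numbered 44 to 51 and 24 to 30 for ABBV-075 with medians of 0.08 to 0.13, 57 to 69 and 17 to 26 for ABBV-744 at 50 nM with medians of 0.15 to 0.23, and 42 to 52 and 11 to 22 at 500 nM with medians of 0.09 to 0.14. The fewest that fell were 17 without IFNg replicate 3 and 11 without the ABBV-744 and IFNg replicate 2 at 500 nM. Between the doses, 0 were called without IFNg with medians of 0 to 0.06, and 0 to 4 were higher and 0 lower with IFNg with medians of -0.07 to -0.02, the 4 without replicate 1 of the higher dose. Between the compounds, 22 to 59 were higher and 10 to 26 lower without IFNg with medians of 0.12 to 0.25, and 7 to 17 higher and 16 to 32 lower with it with medians of -0.11 to -0.05. The extremes with IFNg were without replicate 3 and replicate 1 of ABBV-075 for those higher, and without ABBV-744 replicate 1 and ABBV-075 replicate 1 for those lower. Against Con these were 14 to 52 and 11 to 27 for ABBV-075 with medians of 0.04 to 0.16, 4 to 9 and 6 to 30 for ABBV-744 at 50 nM with medians of -0.12 to -0.07, 1 to 7 and 4 to 19 at 500 nM with medians of -0.06 to -0.03, and 0 to 1 in each direction for IFNg with medians of -0.05 to -0.01. The lowest counts for ABBV-744 against Con were without Con replicate 2, and the highest counts of lower members without ABBV-744 replicate 1. Without ABBV-075 replicate 3 the interaction had 23 higher and 62 lower, and 4 and 26 with the GC correction, and the corrected compound difference without IFNg had 11 lower.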
